A study of Mus musculus with 8 samples.

Results

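A set of 10 genes of bone morphogenetic protein (BMP) signalling were followed in dermal fibroblasts, the matrix-producing cells of the skin, from old and young mice. They are the ligand genes Bmp2, Bmp4 and Bmp6, the antagonist genes Grem1 and Chrdl1, the decoy receptor gene Bambi, the target genes Id1, Id2 and Id3, and Smad6, which is both an inhibitor and a target of the pathway. Every probe set that the platform annotation gives to one of these symbols alone were taken, which were 15 of the 45141 probe sets in the table and 10 of 17097 named genes. The rule used gene names and no measured value, but the members and the gene lists below were chosen with earlier results of these data known.

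The groups were 4 old mice (18 months) and 4 young mice (2 months), all male C57Bl/6 with no transgene or treatment given in the labels, and 1 expression array was made for each mouse. The fibroblasts were sorted by flow cytometry from collagenase-digested skin without its subdermis as Pdgfra- and CD34-positive cells without EpCam, CD31, CD24, CD117 or CD45 on their surface, and RNA of 5000 cells was amplified over 21 cycles. The arrays thus describe one sorted fraction of dermal cells, and in such bulk samples fewer cells of a type and less RNA per cell cannot be told apart. The comparison asks how age alters expression in these cells.

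BMPs are secreted dimers that bind a complex of type I and type II receptor kinases, which phosphorylate Smad1, Smad5 and Smad9. These join Smad4, enter the nucleus and switch on targets such as the Id genes and Smad6, while secreted antagonists keep the ligands from their receptors. In skin, BMP signals from dermal and other cells are known for holding hair follicle stem cells at rest and for acting on hair and dermal differentiation.

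Smad proteins are known to bind the short Smad box and GC-rich sites in target promoters. The stretches before the annotated starts of Id2, Id3 and Smad6 are shown because these are the targets among the members with an entry in the promoter table, which held 6 of the 10 members. They are RefSeq sequences of mouse build GRCm38.p6, written 5′ to 3′ on the gene's strand, and capitals mark the motifs searched. These were GTCT, the Smad box, on both strands (AGAC on the other), the GC-rich site GGCGCC, which reads the same on both strands, and GTCTAGAC, the palindrome that holds a Smad box on each strand.
Id2 (chr12:25096093-25096342, minus strand): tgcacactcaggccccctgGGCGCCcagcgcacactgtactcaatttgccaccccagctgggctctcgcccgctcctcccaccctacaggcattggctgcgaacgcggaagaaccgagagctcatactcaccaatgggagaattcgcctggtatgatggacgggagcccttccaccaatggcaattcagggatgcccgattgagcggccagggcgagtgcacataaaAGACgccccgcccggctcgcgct
Id3 (chr4:136143572-136143821, plus strand): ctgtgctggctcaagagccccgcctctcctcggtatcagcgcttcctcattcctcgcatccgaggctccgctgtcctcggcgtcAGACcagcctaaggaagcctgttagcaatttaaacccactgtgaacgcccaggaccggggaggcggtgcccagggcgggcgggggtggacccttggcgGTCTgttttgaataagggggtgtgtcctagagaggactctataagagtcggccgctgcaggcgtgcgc
Smad6 (chr9:64022056-64022085, minus strand): agcgccgcggagccgccaaagtGTCTAGAC
The Id2 stretch held GGCGCC from position -231 and AGAC from position -23, counted back from the start. The Id3 stretch held AGAC from position -166 and GTCT from position -68, and no GGCGCC. For Smad6, 30 bases ending 4 bases past the start used by the table are shown, and GTCTAGAC lay across that start. Over all 32851 promoter windows of 250 bases before and 50 bases after a start, 88.0% held a Smad box on either strand, 11.9% held GGCGCC and 0.213% held GTCTAGAC. Such a match describes the letters and is not evidence of binding.

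None of the members passed the test for an age difference. The deposited values are log2 expression per probe set, so a difference of 1 is a 2-fold change, and old minus young was tested with limma and Benjamini-Hochberg adjustment over the 45037 probe sets other than array controls, with a threshold of adjusted p under 0.05. Of the 15 member probe sets 0 passed, against 2.58% of all probe sets (1163, of which 555 or 1.23% were higher and 608 or 1.35% lower in old mice). Without 1 mouse the count over all probe sets moved most for old replicates 2, 3 and 4 (713, 698 and 707) and young replicates 2 and 3 (725 and 721). The split in direction moved too. Without old replicate 1, 576 were higher and 439 lower in old mice. It was near even without old replicate 4 (355 and 352) or young replicate 3 (362 and 359), and more were lower in the remaining fits. At an unadjusted p under 0.05 in limma, 4 of the 15 would be counted, 1 higher and 3 lower in old mice, against 13.4% of all probe sets (6.21% higher and 7.21% lower). That share over so few probe sets carries no test. Groups without overlap were found for 0 of the 15, against 8.44% of all probe sets. On the probe set with the highest mean for each gene, the median change of the 10 members was -0.04, beside 0.01 over all 17097 genes. The 95% confidence intervals lay within a 2-fold change in either direction for 9 of the 10, the exception being Grem1. The 9 include Chrdl1 and Bmp6, whose signal was weak, so that a larger change in them could be missed.

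**Figure D1:**
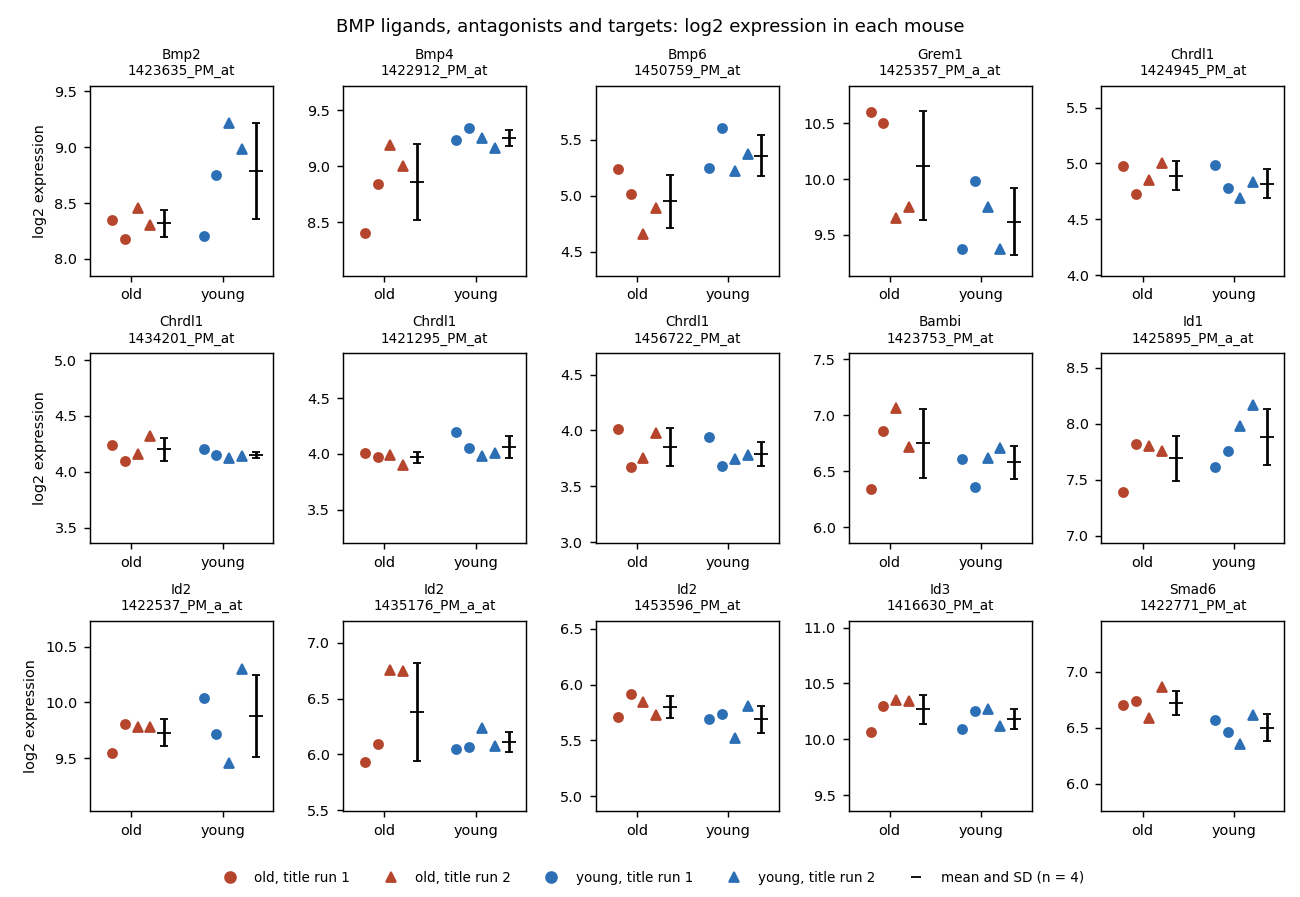
Log2 expression (y axis) of the 15 member probe sets in each old and young mouse, with circles for the first and triangles for the second run of numbers in the sample titles and black bars for the mean and SD (n = 4). The old and young mice overlap in each of the 15 panels, and Grem1 is high in old replicates 1 and 2 (10.60 and 10.50).

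Values below 5.10, the median over all probe sets' means, are called dim here, and the 23 non-specific control probe sets had a median of 3.91. No detection calls were used. Of the 15 probe sets, 4 had a mean below 5.10, all of them for Chrdl1. Beyond picking a gene's brightest probe set and the summed levels below, levels of different probe sets are not compared with each other. In a summed level of several genes the bright probe sets weigh most. The numbers in the sample titles form 2 runs of 4 mice, 1328 to 1331 (old and young replicates 1 and 2) and 1333 to 1336 (old and young replicates 3 and 4). Each run has 2 old and 2 young mice, the makeup stated for a day of collection, but the labels do not say that a run is a day.

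The 3 ligand genes were each measured lower in old mice, at 0.723 to 0.764 of the young level, and none passed. Bmp2, a ligand known for driving bone and hair differentiation, had 8.35, 8.18, 8.46 and 8.30 in old replicates 1 to 4, against 8.21, 8.75, 9.22 and 8.98 in young replicates 1 to 4. The old mice lay close together, and young replicate 1 lay within their range while the other young mice lay above it. The means were 8.32 ± 0.12 in old mice and 8.79 ± 0.43 in young mice (SD, n = 4 each), a change of -0.47 ± 0.19 (SE; 95% interval -0.89 to -0.05) (limma adjusted p = 0.302). Without young replicate 1 the change in Bmp2 was -0.66 and passed (limma adjusted p = 0.0347). Within the first run of title numbers the change was -0.21 and within the second -0.72.

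Bmp4, a ligand made by the mesenchyme of skin and hair papilla, had 8.40, 8.84, 9.19 and 9.00 in old mice, against 9.23, 9.34, 9.25 and 9.16 in young mice. The young mice lay within a narrow band, and the old mice spread below it, with old replicate 3 inside the band. Bmp4 averaged 8.86 ± 0.34 in old mice and 9.25 ± 0.07 in young mice (SD, n = 4 each). The change was -0.39 ± 0.15 (SE; 95% interval -0.72 to -0.05; limma adjusted p = 0.27), and -0.24 without old replicate 1. In the first run the old mice averaged 8.62 and the young mice 9.29, and in the second run the old mice averaged 9.09 and the young mice 9.20, so the difference was -0.66 and -0.11 in turn.

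Bmp6, another ligand known from epidermis and hair papilla, had 5.24, 5.02, 4.66 and 4.89 in old mice, against 5.25, 5.61, 5.22 and 5.37 in young mice. The groups met at one point, where old replicate 1 lay above young replicate 3 by a margin of hundredths. Its signal was near the dim level, with means of 4.95 ± 0.24 in old mice and 5.36 ± 0.18 in young mice (SD, n = 4 each). The change was -0.41 ± 0.13 (SE; 95% interval -0.70 to -0.12), and limma's adjusted p was 0.171. With the run of title numbers as a block it was 0.0803. Bmp6 had the smallest p of the members, and among the brightest probe sets of 10553 genes above the dim level the closest profiles over the 8 arrays were those of Zbed5 (Pearson r = 0.99), Cmtm8, Mrps11, Wnt11 and Dlgap1 (r = 0.95 each). These are the highest of many correlations and include the difference between the ages, and no p is given for them.

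Markers of the dermal papilla, mesenchymal cells of the hair follicle known to make BMP ligands, were measured beside the ligands. Of the list's 7 genes, 6 were measured, and 4 of them (Corin, Lef1, Sox2 and Wif1) were dim. The log2 of the summed level of the 6 ran from 9.19 to 9.85 in old mice and from 11.30 to 11.84 in young mice. Crabp1, a retinoic acid-binding protein, made up most of that sum and fell by 2.32 ± 0.18 (SE; limma adjusted p = 0.000378), the only one of the 6 to pass. The part of these cells in the ligand values was not tested.

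The antagonists did not pass. Grem1, or gremlin, a secreted protein that binds BMP2 and BMP4, had 10.60, 10.50, 9.65 and 9.75 in old mice, against 9.37, 9.98, 9.75 and 9.37 in young mice. Old replicates 1 and 2 lay above all young mice, and old replicates 3 and 4 lay within the young range. Grem1 averaged 10.12 ± 0.49 in old mice and 9.62 ± 0.30 in young mice (SD, n = 4 each), a change of 0.51 ± 0.24 (SE; 95% interval -0.03 to 1.05; limma adjusted p = 0.409). Within the first run of title numbers the change was 0.88 and within the second 0.14. Whether the runs differ in it was not tested.

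Chrdl1, chordin-like 1, a secreted binder of BMPs, was dim on all of its 4 probe sets, whose single values lay between 3.67 and 5.0. The changes were 0.07, 0.05, -0.09 and 0.07, with limma adjusted p from 0.655 to 0.872. On the brightest of them the change ranged from 0.02 without young replicate 3 to 0.12 without old replicate 2 or young replicate 1, and was 0.04 and 0.03 without old replicates 1 and 4. At this signal a change of Chrdl1 could be missed.

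**Figure D2:**
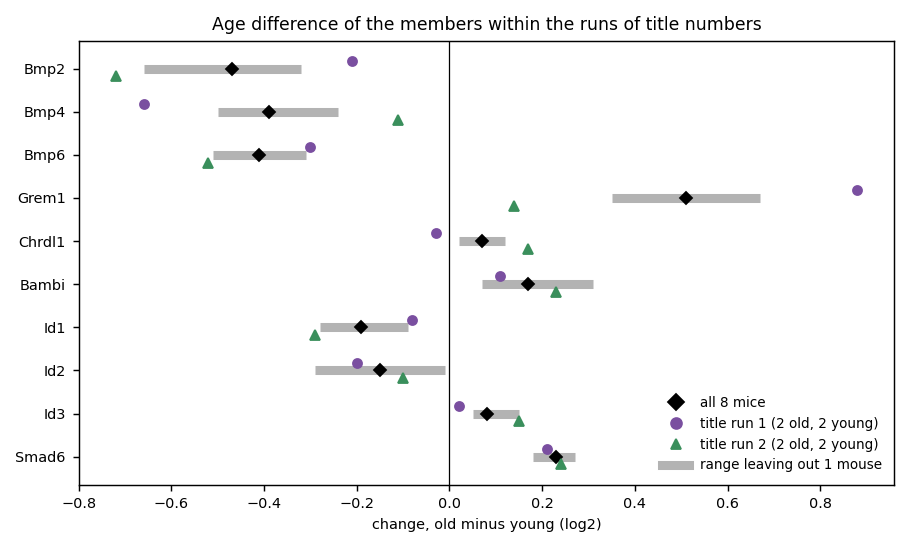
Old minus young (x axis, log2) for the brightest probe set of each member over all 8 mice (diamonds), within each run of title numbers (circles and triangles, 2 old and 2 young mice each) and as the range of values when 1 mouse is left out (grey bars). Bmp2, Bmp4, Bmp6, Id1 and Id2 lie below 0 in both runs and Grem1, Bambi, Id3 and Smad6 above 0 in both, with none past the threshold in all mice, while Chrdl1 lies on either side of 0.

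At the receptors and Smads, Bambi encodes a membrane protein like a type I receptor but without the kinase, which blocks signalling. Bambi had 6.34, 6.86, 7.07 and 6.72 in old mice, against 6.61, 6.36, 6.62 and 6.71 in young mice, and the old mice spread around the young ones. The change was 0.17 ± 0.15 (SE; 95% interval -0.16 to 0.50; limma adjusted p = 0.733). It was 0.31 without old replicate 1, 0.07 without old replicate 3 and 0.10 without young replicate 2.

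Smad6 encodes an inhibitory Smad that BMP signals switch on and that damps them in turn. It had 6.70, 6.74, 6.59 and 6.86 in old mice, against 6.57, 6.46, 6.35 and 6.61 in young mice. Only old replicate 3 lay below the highest young mouse. Smad6 averaged 6.72 ± 0.11 in old mice and 6.50 ± 0.12 in young mice (SD, n = 4 each), and the change was 0.23 ± 0.08 (SE; 95% interval 0.04 to 0.41; limma adjusted p = 0.241). It was 0.21 and 0.24 within the runs.

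The Id genes, the best known early targets of BMP signals, did not pass either. They encode helix-loop-helix proteins without a DNA-binding region, which capture E-proteins. Id1 had 7.39, 7.82, 7.80 and 7.76 in old mice, against 7.61, 7.76, 7.98 and 8.17 in young mice. Old replicate 1 was the lowest of all and the other old mice fell inside the young range, with a change of -0.19 ± 0.14 (SE; 95% interval -0.50 to 0.12; limma adjusted p = 0.67). Without old replicate 1 or young replicate 4 in turn, the change in Id1 was -0.09.

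Id3 had 10.07, 10.30, 10.35 and 10.34 in old mice, against 10.09, 10.25, 10.27 and 10.12 in young mice. The change was 0.08 ± 0.08 (SE; 95% interval -0.10 to 0.27; limma adjusted p = 0.784), and from 0.05 to 0.15 without 1 mouse, the highest without old replicate 1 and the lowest without old replicate 3 or young replicate 1. Id2 had 3 probe sets, and they differed in sign. The brightest had 9.55, 9.81, 9.78 and 9.78 in old mice, against 10.04, 9.72, 9.46 and 10.30 in young mice, with the young mice on both sides of the old. Its change was -0.15 ± 0.16 (SE; 95% interval -0.52 to 0.22; limma adjusted p = 0.815). It was -0.29 without young replicate 3, -0.01 without young replicate 4, -0.09 without old replicate 1 and -0.10 without young replicate 1.

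The second Id2 probe set had 5.93, 6.09, 6.76 and 6.75 in old mice, against 6.05, 6.07, 6.24 and 6.08 in young mice. Old replicates 3 and 4 lay above every other mouse, old replicate 2 lay among the young and old replicate 1 was the lowest of all. Its change was 0.27 ± 0.19 (SE; limma adjusted p = 0.634), made up of -0.05 in the first run and 0.59 in the second. The third Id2 probe set changed by 0.11 ± 0.08 (SE; limma adjusted p = 0.668).

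Id genes also respond to serum and stress, so genes known to be induced while tissue is dissociated were measured beside them. Of 10 such immediate early genes, 9 were measured and 0 passed in limma (2 lower at an unadjusted p under 0.05, with 15.5% of all genes under it in either direction). The log2 of their summed level was 14.81 to 15.04 in old mice and 14.98 to 15.08 in young mice. Of the 9, 0 were dim. Fos averaged 12.02 in old mice and 12.22 in young mice, and Fosb 12.65 and 12.74 in turn. Fos changed by -0.20 ± 0.08 (limma adjusted p = 0.29) and Jun by -0.48 ± 0.19 (limma adjusted p = 0.293; both SE). The part of dissociation in the Id values was not tested.

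Around the members, another ligand gene, Bmp7, and the type I receptor gene Acvrl1 passed higher in old mice, and the E-protein gene Tcf4 passed lower. Lists of 61 further genes of the pathway and of E-proteins were read on one probe set per gene, the brightest. Of the 54 measured, 2 rose, 1 fell and 51 did not pass, against 3.36% of all 17097 genes called in either direction (1.57% higher and 1.79% lower). Their median change was 0.03, beside 0.01 over all genes. A count over so few genes carries no test. The count of 3 was 1 without old replicate 1, old replicate 3 or young replicate 2 in turn, and 2 without old replicates 2 or 4 or young replicate 1. With the run of title numbers as a block it was 5.

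**Figure D3:**
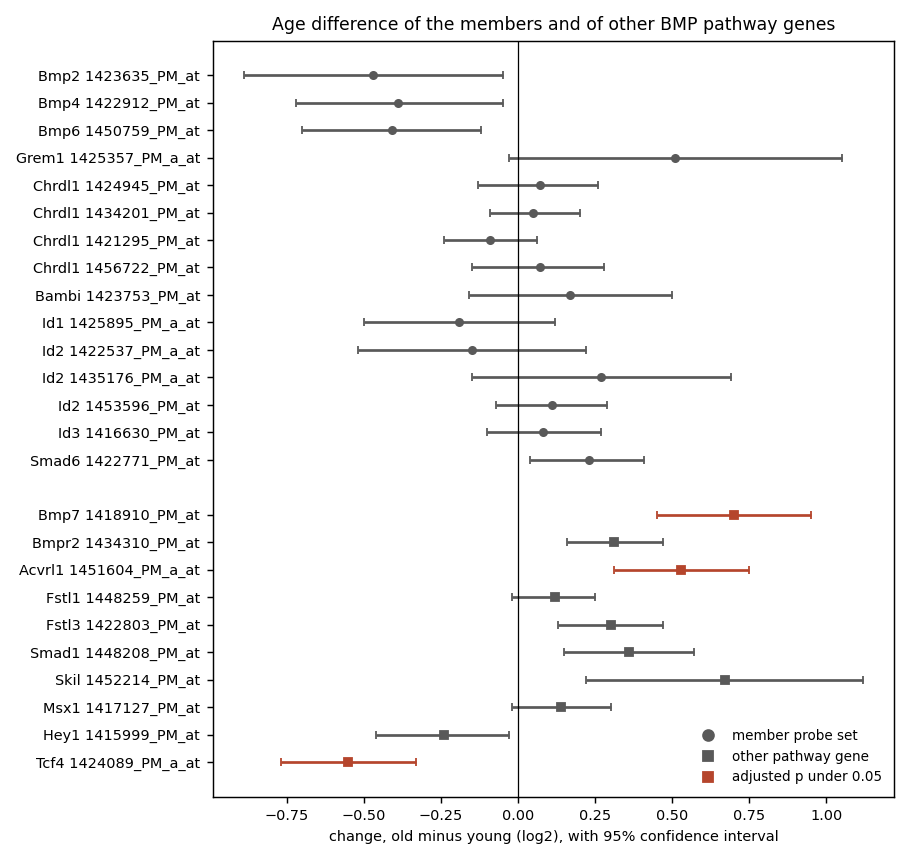
Old minus young (x axis, log2) with its 95% confidence interval for the 15 member probe sets (circles) and the brightest probe set of 10 other pathway genes (squares). Bmp7 (0.70), Acvrl1 (0.53) and Tcf4 (-0.55) passed the threshold and are drawn in red, and the members are grey.

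Of 9 further ligand genes measured of 12 listed, 1 rose and 0 fell. Bmp7, a ligand of the same receptors known from kidney, bone and hair papilla, had 9.04, 9.06, 8.92 and 8.89 in old mice, against 8.27, 8.54, 8.33 and 7.97 in young mice. All old mice lay above all young mice. The means were 8.98 ± 0.08 in old mice and 8.28 ± 0.24 in young mice (SD, n = 4 each), a 1.62-fold change (0.70 ± 0.11, SE; limma adjusted p = 0.0131). The change was 0.65 within the first run of title numbers and 0.76 within the second.

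The other probe sets of Bmp7 pointed the same way. The second changed by 0.75 ± 0.13 and passed (limma adjusted p = 0.0216), and the third changed by 0.55 ± 0.16 and did not (limma adjusted p = 0.119; both SE), with groups apart on both. Bmp7 kept its call in each fit without 1 mouse, with limma adjusted p from 0.0108 to 0.0463. In contrast to the ligand genes among the members, whose estimates were negative, that of Bmp7 was positive; the difference between them was not tested.

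Keratinocyte markers were measured beside Bmp7, since epidermal cells can also express it. All 5 of the list were measured, 1 was dim (Krt1) and 0 passed. The log2 of their summed level was 8.61 to 10.31 in old mice and 8.26 to 9.16 in young mice. Old replicate 3 was high in Krt10, at 9.13, against 6.23, 6.48 and 6.84 in old replicates 1, 2 and 4. Krt1, Krt10, Krt14 and Krt15 changed by 0.63 ± 0.39, 0.35 ± 0.55, 0.24 ± 0.26 and 0.13 ± 0.08 (SE). Krt5 had 7.44, 7.15, 8.78 and 8.43 in old mice, against 7.29, 6.36, 6.11 and 7.55 in young mice (change 1.12 ± 0.43, SE; limma adjusted p = 0.267). The part of these cells in the Bmp7 result was not tested.

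Of 11 receptor and co-receptor genes, 1 rose and 0 fell past the threshold. At an unadjusted p under 0.05 in limma, 2 were higher and 2 lower in old mice, beside 15.5% of all genes in either direction. The 2 lower were the co-receptor gene Rgma and the type I receptor gene Acvr1. Rgma changed by -0.27 ± 0.07 (SE, limma adjusted p = 0.0894), with groups apart, and Acvr1 by -0.27 ± 0.10 (SE, limma adjusted p = 0.238). Acvrl1, a type I receptor for BMP9 and BMP10 best known from endothelium, had 9.80, 9.89, 9.74 and 9.72 in old mice, against 9.46, 9.15, 9.38 and 9.04 in young mice. Here too all old mice lay above all young mice. Acvrl1 averaged 9.79 ± 0.08 in old mice and 9.26 ± 0.20 in young mice (SD, n = 4 each), a change of 0.53 ± 0.10 (SE; limma adjusted p = 0.024), and it was 0.54 and 0.52 within the runs. The second probe set changed by 0.31 ± 0.15 (SE; limma adjusted p = 0.428). Without any one of old replicates 1 to 4 or young replicate 2, the call of Acvrl1 was lost at changes of 0.49 to 0.55 (limma adjusted p = 0.0767 without old replicate 2, the highest).

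Endothelial markers gave 0 of 6 past the threshold, with Emcn, Tek and Vwf dim. At an unadjusted p under 0.05 in limma, 1 was higher and 0 lower in old mice, beside 15.5% of all genes in either direction. This was Kdr, near the dim level, with a change of 0.35 ± 0.12 (SE, limma adjusted p = 0.221). The log2 of the summed level of the 6 markers was 7.63 to 7.85 in old mice and 7.44 to 7.72 in young mice. The part of endothelial cells in the Acvrl1 result was not tested. Bmpr2, the main type II receptor gene, which was picked out after its values were seen, lay at the threshold. It had 9.52, 9.41, 9.34 and 9.38 in old mice, against 9.10, 9.04, 9.23 and 9.03 in young mice, again without overlap. The change was 0.31 ± 0.07 (SE; limma adjusted p = 0.0508), or 0.049 with the title run as a block, and the second probe set changed by 0.12 ± 0.07 (SE; limma adjusted p = 0.499). For the type I receptor gene Bmpr1a the one named probe set was dim, at 3.91 in old mice and 3.86 in young mice.

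**Figure D4:**
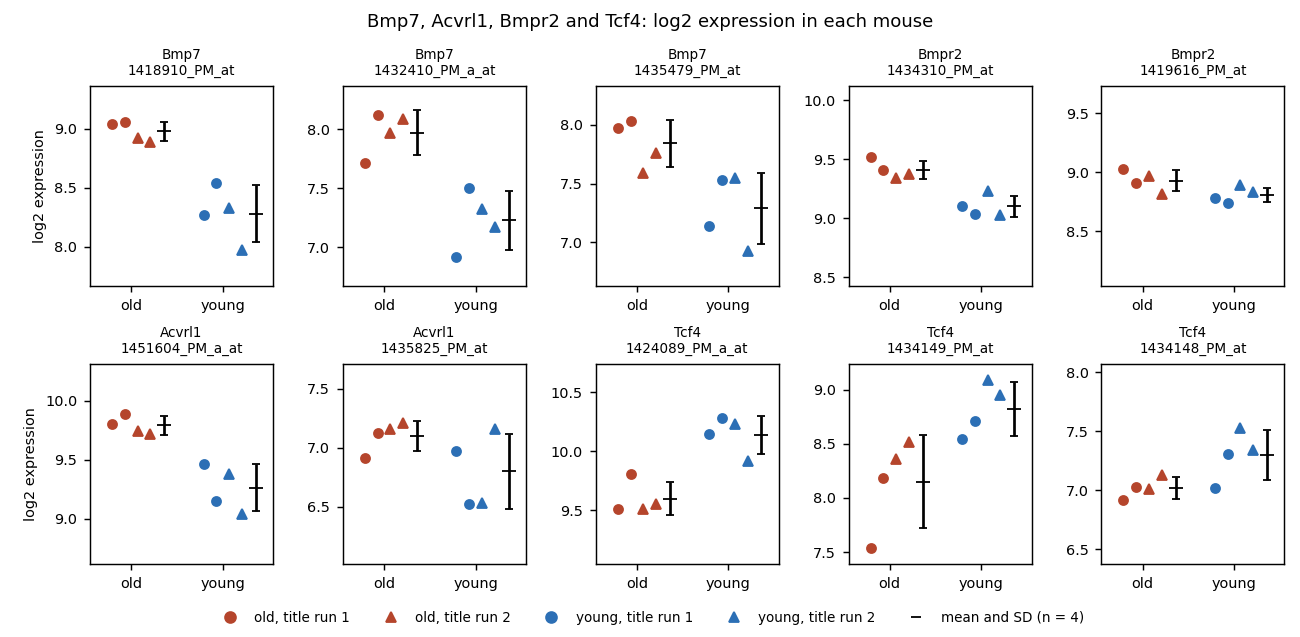
Log2 expression (y axis) of each probe set of Bmp7, Bmpr2, Acvrl1 and Tcf4 in each old and young mouse, with symbols and bars as in the plot of the members. Old and young mice are apart on all 3 probe sets of Bmp7, on the brightest of Bmpr2 and Acvrl1 and on 2 of 3 of Tcf4.

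Of 16 further antagonists and modulators measured of 18 listed, 0 passed in limma. At an unadjusted p under 0.05 there was 1, higher in old mice, beside 15.5% of all genes in either direction. Fstl3, a secreted binder of activin and some BMPs, changed by 0.30 ± 0.07 (SE; limma adjusted p = 0.0725), and the matrix glycoprotein gene Fstl1 by 0.12 ± 0.06 (SE; limma adjusted p = 0.466), with 0.26 ± 0.06 on a second Fstl1 probe set whose groups were apart (limma adjusted p = 0.0689). Nog and Chrd, which encode the classical antagonists noggin and chordin, were in this list and did not pass.

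Of 10 signal transducers and intracellular inhibitors, 0 passed in limma. At an unadjusted p under 0.05 there were 2, both higher in old mice, beside 15.5% of all genes in either direction. Smad1, which carries the BMP signal to the nucleus, changed by 0.36 ± 0.10 (SE; limma adjusted p = 0.0964), and its second probe set by 0.07 ± 0.11. Skil, a repressor of Smad complexes, had 8.39, 8.35, 8.85 and 8.73 in old mice, against 7.74, 7.42, 8.15 and 8.34 in young mice. The groups were apart by a small margin, and in both ages replicates 3 and 4 were higher than 1 and 2. Skil changed by 0.67 ± 0.20 (SE; limma adjusted p = 0.145), and passed with the title run as a block (limma adjusted p = 0.0078).

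Of 5 further target genes measured of 7 listed, 0 passed in limma. At an unadjusted p under 0.05 there was 1, lower in old mice, beside 15.5% of all genes in either direction. Hey1, a repressor that BMP and Notch signals switch on, changed by -0.24 ± 0.10 (limma adjusted p = 0.285), and the homeobox gene Msx1 by 0.14 ± 0.07 (limma adjusted p = 0.476; both SE). Neither passed, nor did Id4, the remaining Id gene, at -0.07 ± 0.14 (SE; limma adjusted p = 0.913).

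Among the E-proteins, the partners that Id proteins capture, 1 of 3 fell. Tcf4, which is distinct from the Wnt factor of similar name, had 9.51, 9.81, 9.51 and 9.55 in old mice, against 10.15, 10.28, 10.23 and 9.92 in young mice. All old mice lay below all young mice, with means of 9.60 ± 0.14 in old mice and 10.14 ± 0.16 in young mice (SD, n = 4 each). The change was -0.55 ± 0.10 (SE; limma adjusted p = 0.0225), or 0.683 of the young level, and it was -0.55 and -0.54 within the runs. The other probe sets changed by -0.67 ± 0.21 and -0.28 ± 0.10 (SE) and did not pass (limma adjusted p = 0.152 and 0.261). The call of Tcf4 was lost without any one of old replicates 1, 3 and 4 or young replicates 1, 2 and 3, at changes of -0.55 to -0.50 (limma adjusted p up to 0.0689). Tcf3 and Tcf12 changed by -0.28 ± 0.08 and -0.23 ± 0.10 (SE) and did not pass (limma adjusted p = 0.131 and 0.341).

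For the sorted cells as a whole, array medians lay between 5.06 and 5.14. Of 6 fibroblast genes, 0 passed. At an unadjusted p under 0.05 in limma, 1 was higher and 2 lower in old mice, beside 15.5% of all genes. Col1a1, Dcn, Cd34 and Lum were bright. Their means were 13.08, 13.08, 11.01 and 11.8 in old mice and 13.13, 13.03, 10.81 and 11.85 in young mice. The one named probe set of Col1a2 averaged 6.92 in old mice and 7.32 in young mice (change -0.40 ± 0.16, SE; limma adjusted p = 0.312). The one named probe set of Pdgfra, the gate's fibroblast marker, was dim, at 4.47 in old mice and 5.06 in young mice. Of the 5 gate genes selected against, 1 passed. This was Cd24a, which fell by 2.74 ± 0.27 (SE; limma adjusted p = 0.00134). Kit and Ptprc were dim. Epcam and Pecam1 had changes of the other sign, 0.40 ± 0.10 and 0.17 ± 0.12 (SE), and did not pass (limma adjusted p = 0.0715 and 0.633). The log2 of the summed level of the 5 gate genes was 7.22 to 7.70 in old mice and 8.46 to 8.67 in young mice. Cd24a alone averaged 5.33 in old mice and 8.07 in young mice. Of the 5 melanocyte markers, 1 passed. This was Mlana, which rose by 2.88 ± 0.35 (SE; limma adjusted p = 0.00347). Dct and Tyr were dim. Mitf and Pmel changed by 0.57 ± 0.22 and -0.08 ± 0.11 (SE) and did not pass (limma adjusted p = 0.277 and 0.859). The summed level of the 5 melanocyte markers (log2) was 9.40 to 10.48 in old mice and 8.35 to 8.84 in young mice. Mlana alone averaged 9.1 in old mice and 6.22 in young mice. The part of these in the values of the members was not tested.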

How the data were processed

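Per the submitters' processing notes, the authors made the deposited log2 values with RMA and affy, with no versions given. RMA adjusts background, makes the arrays' distributions alike and sums up a set's probes, so values are relative to the array as a whole. Of 45141 probe sets, 104 array controls were left out of the test. The platform annotation gave 1 symbol to 28898 of the 45037 others, several to 551 and none to 15588, which stayed unnamed. No arrays were identical (0 duplicated), and each came from a separate mouse, so replicates are biological. The number of arrays limits the precision.

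Old was compared with young with limma 3.58.1 in R 4.3.3 (lmFit, eBayes, 2-sided), adjusted over all 45037 probe sets. All adjusted p-values come from limma. The brightest probe set stood for a gene in lists. All probe sets of members were named. From each list, genes past the threshold were named, or else up to 2 with the smallest p, as were 5 genes closest to the member with the smallest p. Other genes named were chosen after their values were seen, or are markers. The members and lists were chosen with earlier results of these data known. The collection day of each mouse is not given, so it was no term of the fit. The alternatives changed the prior, array weights, the dim filter, the unit, the scaling, the threshold, the title run as a block, and the mice. The fit was tested on simulated data.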

Additional observations from a re-analysis of the deposited data

Results flagged for a closer look

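In 4 of the 36 groups of 4 mice checked, covering the members' probe sets and the brightest probe sets of Bmp7, Acvrl1 and Tcf4, one mouse lay far from the other 3 for its group's range. Chance alone does so in about 1 in 20 groups. Old replicate 1 was low in Id1 (7.39, the others 7.76 to 7.82) and on the brightest probe set of Id2 (9.55, the others 9.78 to 9.81). Young replicate 3 was high on the second Id2 probe set (6.24, the others 6.05 to 6.08). Old replicate 2 was high in Tcf4 (9.81, the others 9.51 to 9.55).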

How the results depend on the processing

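The count of member probe sets past the threshold was 0 in 17 of 18 alternatives and 1 without young replicate 1 (0 to 1 over the fits without 1 mouse), where Bmp2 passed with a change of -0.66 (-0.66 to -0.32 over these fits). Id2 turned to 0.08 with the mean of its probe sets, which differ in sign. The count over all probe sets, 1163, was 409 at adjusted p under 0.01 and 698 to 1089 without 1 mouse. Tested per gene it was 679 with the brightest probe set and 755 with the mean of probe sets, as fewer features were tested. The count of 3 genes in the pathway lists was 0 at adjusted p under 0.01, 5 with the title run as a block, where Skil and Bmpr2 joined, and 1 to 3 without 1 mouse. No paired analysis was possible because the labels give the mice no shared replicate numbers. The block changed no call of a member. Chrdl1 has no value with dim probe sets left out. Signal near the dim level limits Chrdl1 and Bmp6.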
